A study of Homo sapiens with 6 samples.

Results

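The PDGF and KIT system is a small family of secreted ligands and receptor tyrosine kinases, and its 8 genes were followed here in PC-3 prostate cancer cells selected under an AKT inhibitor. The genes are the receptors PDGFRA, PDGFRB and KIT, the PDGF ligands PDGFA, PDGFB, PDGFC and PDGFD, and the KIT ligand KITLG. They were taken by symbol and account for 8 of 27734 gene rows in the tables. The set was chosen by measured values of this same contrast, the lower levels of PDGFRA and KITLG and the higher level of PDGFB in resistant cells. The difference between the groups is therefore given for the 8 genes as a description, with no p-value.

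PC-3 is a human prostate cancer cell line grown in serum-containing medium. The resistant line was kept continuously in GDC-0068, also called ipatasertib, which blocks the ATP site of AKT kinases, and the control line was carried alongside in DMSO, the vehicle. Both were taken at passages 20 to 30, and RNA sequencing gave 3 libraries per line. The labels name neither the dose nor whether the resistant line is a clone, and they do not say that the libraries of a line came from separate cultures, so the spread between them may be technical.

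PDGF ligands are disulphide-linked dimers. PDGF-A, PDGF-B and PDGF-C chains bind the alpha receptor, PDGF-B and PDGF-D bind the beta receptor, and ligand-bound receptors signal through PI3K-AKT, RAS-ERK and phospholipase C. KIT is the related receptor for stem cell factor, the product of KITLG, and is best known in blood stem cells, mast cells, melanocytes and germ cells. In the prostate, as in most epithelial tissues, PDGF receptors are typical of the stroma and the ligands of the epithelium.

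Each library held 35562400 to 44279078 fragments summed over genes. Control replicate 1 differed from its group by base composition: across 12697 genes, its log2 deviation from the control mean and the GC content of the transcript had a Spearman's rho of -0.749, against 0.591 and 0.638 in control replicates 2 and 3. Deviations within a group of 3 sum to 0, which sets the opposite signs. In the resistant libraries the same rho was 0.000228, 0.201 and -0.202. Genes are not independent replicates, and this correlation is a description. The 5 epithelial marker genes summed to 1360 to 1540 FPKM per control library and 1270 to 1340 per resistant library. Of these, 3 fell in resistant cells by the edgeR test described with the neighbouring genes: CDH1, which encodes E-cadherin, from 65.2 ± 1.24 to 34.0 ± 0.988 FPKM (SD, n = 3 each), KRT19 by 0.34 and EPCAM by 0.27 on the log2 scale. Over all genes tested, 25.7% fell and 50.2% passed in either direction. KRT8 (-0.07) and KRT18 (0.12) did not pass, while the prostate luminal genes KLK3 and KLK2 were at 0 in every library. The 12 fibroblast and pericyte markers summed to 77.6 to 90.5 FPKM per control library and 97.9 to 102 per resistant library, nearly all of it MCAM, which rose from 79.4 to 95.1 FPKM. ACTA2 rose from 0.866 to 1.61 FPKM and COL1A1 fell from 2.60 to 1.40. ACTA2 reached the level for testing only through its resistant libraries. The other 9 were under the level for testing: CSPG4 had 1.04 and 0.663 FPKM in control and resistant cells, RGS5 0.470 and 0.724, LUM 0.314 and 0.412, COL3A1 0.124 and 0.0563, and DES 0.0583 and 0.0150. COL1A2, DCN, THY1 and FAP had group means of 0.00540 to 0.0349 FPKM. The part of these markers in the results was not tested.

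Of the 8 members, 6 reached a mean of 1 FPKM (fragments scaled to transcript length and library size) over the 6 libraries, the level needed for the fit across all genes, and PDGFRB and KIT did not. PDGFRA reached it only through its control libraries. In control cells the order of levels was PDGFC, KITLG, PDGFA, PDGFB, PDGFRA, PDGFD, PDGFRB and KIT, from 12 FPKM down to 0. Within that order PDGFC and KITLG overlapped between libraries, as did PDGFA and PDGFB. In resistant cells the order was PDGFB, PDGFC, PDGFA, PDGFD, KITLG, PDGFRA, PDGFRB and KIT, and PDGFD and KITLG overlapped. FPKM ranges of the groups did not overlap for 5 of the 6 members that reached the level, 3 lower and 2 higher in resistant cells. Over all 13070 genes tested the ranges did not overlap for 60.5%, with 28.5% lower and 31.9% higher. PDGFRA and KITLG were at least 2-fold lower and PDGFB at least 2-fold higher by mean FPKM, and nothing is read from these counts because the members were picked on them. Of all genes tested, 1.31% were at least 2-fold lower with an adjusted p under 0.05 and 2.1% at least 2-fold higher.

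**Figure D1:**
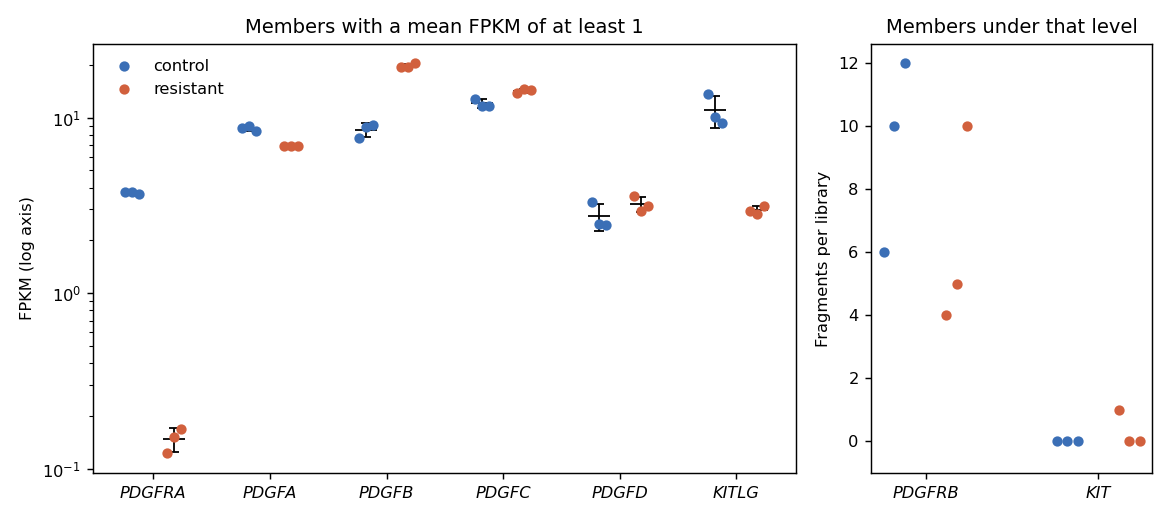
Level of each member in each library, as FPKM on a log axis for the 6 members with a mean of at least 1 FPKM (left; bars are mean ± SD of 3 libraries) and as fragments for PDGFRB and KIT (right, with no bars). Resistant libraries of PDGFRA lie at 0.123 to 0.170 FPKM against 3.67 to 3.77 in control, and those of PDGFB at 19.3 to 20.3 against 7.67 to 9.09.

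PDGFRA, the receptor for PDGF-A, PDGF-B and PDGF-C chains, was 25.1-fold lower in resistant cells by mean FPKM. It lies on chromosome 4 at 55095256 to 55164414 (hg19, plus strand). Control libraries held 1152, 1163 and 1027 fragments, or 3.77, 3.77 and 3.67 FPKM. Resistant libraries held 33, 51 and 52 fragments, or 0.123, 0.153 and 0.170 FPKM. The control libraries were nearly equal and the groups were far apart. The mean was 3.73 ± 0.0591 FPKM in control and 0.149 ± 0.0237 in resistant cells (SD, n = 3 each), with a fitted log2 fold change of -4.66 ± 0.11 (SE). The fitted value stayed between -4.75 and -4.54 over 13 alternative settings.

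The stretches before the annotated PDGFRA starts and the KITLG start are shown because these are the members with the largest differences in level. They are the 250 bases upstream of each RefSeq start in GRCh38.p14, on the gene's strand, 5′ to 3′. Capitals mark matches to the AP-1 site TGANTCA, the GC box GGGCGG, the TATA box TATAAA, the forkhead site GTAAACA or the E-box CACGTG, on either strand. PDGFRA start 1 covers chr4:54229043-54229292 (plus strand), PDGFRA start 2 covers chr4:54233710-54233959 (plus strand), and KITLG covers chr12:88580472-88580721 (minus strand).
PDGFRA start 1: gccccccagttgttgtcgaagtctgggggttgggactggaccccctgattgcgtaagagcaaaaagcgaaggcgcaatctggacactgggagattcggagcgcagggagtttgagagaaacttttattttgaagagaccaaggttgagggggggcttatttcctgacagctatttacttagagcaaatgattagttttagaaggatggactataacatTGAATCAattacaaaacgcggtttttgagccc
PDGFRA start 2: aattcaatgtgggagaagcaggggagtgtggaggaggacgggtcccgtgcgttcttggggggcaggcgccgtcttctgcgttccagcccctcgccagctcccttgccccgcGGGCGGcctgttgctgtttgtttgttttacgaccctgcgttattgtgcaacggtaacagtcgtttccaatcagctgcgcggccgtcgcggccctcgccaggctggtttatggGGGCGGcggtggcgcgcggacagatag
KITLG: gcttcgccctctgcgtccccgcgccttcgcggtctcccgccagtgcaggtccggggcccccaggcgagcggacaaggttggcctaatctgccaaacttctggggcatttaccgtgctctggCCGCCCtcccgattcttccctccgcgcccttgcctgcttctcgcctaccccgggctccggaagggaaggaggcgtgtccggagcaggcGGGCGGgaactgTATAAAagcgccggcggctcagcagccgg

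The upstream windows of PDGFRA differed from each other in composition. Start 1 had 46.8% GC and 8 CpG dinucleotides, with 1 AP-1 match (TGAATCA) and no match to the other motifs. Start 2 had 64% GC and 25 CpG dinucleotides, with 2 GC boxes. KITLG had 69.2% GC and 26 CpG dinucleotides, with a TATA box and 2 GC boxes. Among 35116 promoter windows of the same length, 6.57% held the AP-1 letters, 42.6% the GC box, 10.7% the TATA box, 2.98% the forkhead site and 6.34% the E-box. Matches did not overlap each other in these 3 windows. Windows were found for 6 of the 8 members, the others being PDGFB and PDGFC.

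PDGFRB, the receptor for PDGF-B and PDGF-D and a marker of pericytes, was close to the detection limit in both lines. It lies on chromosome 5 at 149493402 to 149535422 (minus strand). Control libraries held 6, 10 and 12 fragments and resistant libraries 4, 5 and 10, so the ranges overlapped. A count of 6 has a 95% exact Poisson interval of 2.20 to 13.1 fragments and a count of 4 one of 1.09 to 10.2, which cover counting error only. A difference between the lines was not detectable at this depth. The level was 0.0440 ± 0.0162 FPKM in control and 0.0291 ± 0.0143 in resistant cells (SD, n = 3 each).

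KIT, the stem cell factor receptor, had 1 fragment in resistant replicate 1 and 0 in the other 5 libraries. It lies on chromosome 4 at 55524095 to 55606881 (plus strand), the next member along from PDGFRA. A floor of 3 counts per library corresponds to 0.0138 to 0.0172 FPKM, the limit that a count of 0 allows. Both groups were under the floor, so no fold is given.

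KITLG, which encodes stem cell factor, was 3.70-fold lower in resistant cells by mean FPKM. It lies on chromosome 12 at 88886570 to 88974250 (minus strand). Control libraries were at 13.6, 10.1 and 9.33 FPKM and resistant libraries at 2.96, 2.84 and 3.13 FPKM. Control replicate 1 was the highest, and every control library exceeded every resistant library. The mean was 11 ± 2.31 FPKM in control and 2.98 ± 0.148 in resistant cells (SD, n = 3 each), with a log2 fold change of -1.91 ± 0.14 (SE). The value was -1.72 without control replicate 1 and -1.78 with a correction for GC content. KITLG transcripts have 37.3% GC, the lowest of the 8 genes, and its level in control replicate 1 was 1.41 times the mean of the other control libraries.

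PDGFB, the chain that binds both PDGF receptors, was 2.30-fold higher in resistant cells by mean FPKM. It lies on chromosome 22 at 39619364 to 39641060 (minus strand). Control libraries held 1136, 1322 and 1234 fragments, or 7.67, 8.84 and 9.09 FPKM. Resistant libraries held 2518, 3116 and 3016 fragments, or 19.4, 19.3 and 20.3 FPKM. All resistant libraries lay above all control libraries. The mean was 8.54 ± 0.76 FPKM in control and 19.7 ± 0.583 in resistant cells (SD, n = 3 each), and the log2 fold change of 1.19 ± 0.07 (SE) was 1.12 without control replicate 1. By level PDGFB moved from the 44.1th to the 67.5th percentile of tested genes.

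PDGFA, whose chain binds the alpha receptor alone, was slightly lower in resistant cells. It lies on chromosome 7 at 536897 to 559481 (minus strand). Control libraries were at 8.69, 8.91 and 8.34 FPKM and resistant libraries at 6.88, 6.92 and 6.91 FPKM. The resistant libraries were almost equal and all lay below the control libraries. The log2 fold change was -0.34 ± 0.06 (SE, n = 3 per group), and -0.41 with a GC correction. PDGFB and PDGFA were therefore at like levels in control cells, with FPKM ratios of 0.883, 0.993 and 1.09, and apart in resistant cells, with ratios of 2.82, 2.79 and 2.94.

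PDGFC and PDGFD, whose chains are secreted with a CUB domain that proteases must remove, differed little between the lines. PDGFC, on chromosome 4 at 157682763 to 157892546 (minus strand), was at 12.8, 11.7 and 11.6 FPKM in control libraries and 13.8, 14.5 and 14.4 in resistant libraries. The groups were close but did not overlap, and the log2 fold change was 0.23 ± 0.06 (SE, n = 3 per group). PDGFD, on chromosome 11 at 103777914 to 104035027 (minus strand), was at 3.31, 2.48 and 2.46 FPKM in control libraries and 3.58, 2.94 and 3.13 in resistant libraries. Control replicate 1 overlapped the resistant libraries. The PDGFD log2 fold change was 0.20 ± 0.13 (SE), and 0.36 without control replicate 1, which moved it by over 1.5 times. The row of DDI1 lies within the PDGFD locus on the other strand and held at most 3 fragments.

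**Figure D2:**
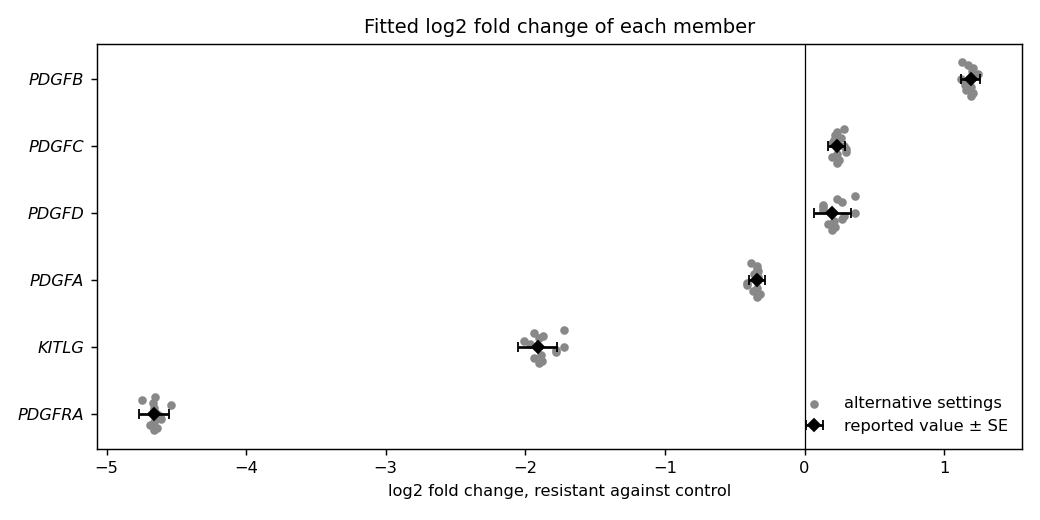
Fitted log2 fold change, resistant against control, of the 6 members with a mean of at least 1 FPKM (diamonds with SE, 3 libraries per group) and the same value under 13 alternative settings (grey points). No member changed sign, and KITLG and PDGFD moved furthest, to -1.72 and 0.36 without control replicate 1.

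The sum and make-up of PDGF ligand RNA are given as a description, since PDGFB was picked for its higher level and carries most of the difference in the sum. The sum was 32.5, 31.9 and 31.5 FPKM in control libraries and 43.7, 43.7 and 44.8 in resistant libraries. PDGFB made up 26.7 ± 2.76% of the sum in control and 44.6 ± 0.66% in resistant cells (SD, n = 3 each). PDGFA made up 27.1 ± 0.763% and 15.7 ± 0.218%, PDGFC 37.6 ± 1.58% and 32.4 ± 0.827%, and PDGFD 8.60 ± 1.39% and 7.30 ± 0.782%. The lower shares of PDGFC and PDGFD go with the larger PDGFB part of the sum, as the mean level of each was higher in resistant cells. PDGFC was the most abundant ligand gene in every control library and PDGFB in every resistant library.

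**Figure D3:**
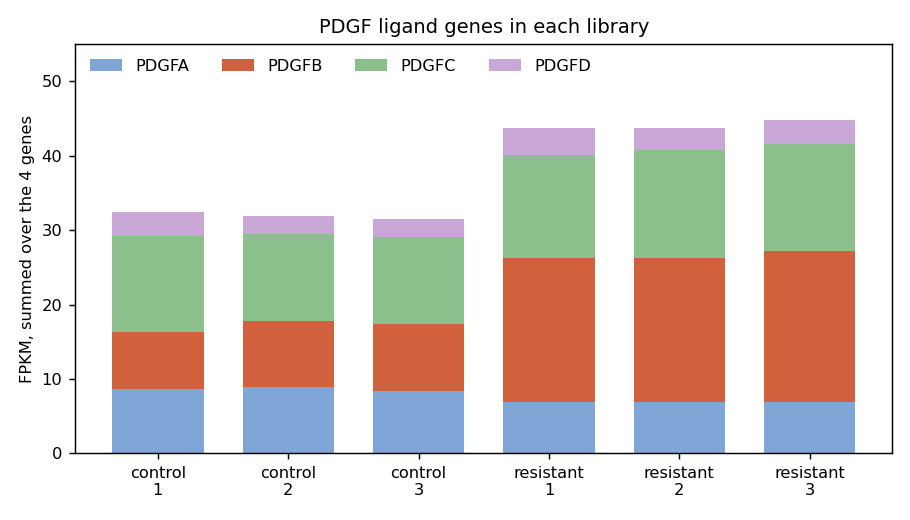
FPKM of PDGFA, PDGFB, PDGFC and PDGFD stacked for each library. The sum is 31.5 to 32.5 FPKM in the 3 control libraries and 43.7 to 44.8 in the 3 resistant libraries, and the PDGFB segment is wider in each resistant library.

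Genes beside the members on the chromosome went in both directions. The members were picked for large differences, so nothing is read from their size against the neighbours. The neighbours were not used to choose the members and are given with edgeR's quasi-likelihood test, adjusted by Benjamini-Hochberg over 13070 genes, in which 50.2% of genes passed at 0.05, 24.5% higher and 25.7% lower. Among the 35 genes that are the 3 nearest tested genes on each side of a member (2 on 1 side of PDGFA), 8 rose, 7 fell and 20 did not pass, with a median log2 fold change of -0.06. Around PDGFRA, SRD5A3, a polyprenol reductase, rose by 0.56 ± 0.06 and the VEGF receptor gene KDR, which lies beyond KIT, fell from 2.83 ± 0.149 to 1.68 ± 0.117 FPKM (-0.77 ± 0.08). CHIC2, the nearest tested gene at 219 kb upstream, had a value of 0.18 ± 0.07, a call lost in 10 of 12 alternatives. SCFD2 had -0.22 ± 0.06, a call lost without control replicate 3 or resistant replicate 2 or 3, and FIP1L1 (-0.06 ± 0.04) and TMEM165 (-0.03 ± 0.08) did not pass.

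The 6 tested neighbours of KITLG had log2 fold changes of -0.57 to 0.02. Among them GALNT4, a mucin-type glycosyltransferase, fell by 0.57 on the log2 scale (edgeR adjusted p = 0.00204), and DUSP6, an ERK phosphatase, had -0.06 ± 0.05 (adjusted p = 0.341), passing in 2 of 12 alternatives. TMTC3, the nearest, had -0.39 ± 0.15 (adjusted p = 0.0518) and passed in 8 of 12 alternatives. Around PDGFB, the Polycomb gene CBX7 rose from 2.18 ± 0.254 to 3.77 ± 0.363 FPKM (SD, n = 3 each; 0.77 ± 0.11) and the ribosomal protein gene RPL3 by 0.26 ± 0.06, while APOBEC3C (-0.21 ± 0.08) and APOBEC3G (-0.37 ± 0.14) did not pass, though each passed in 6 and 4 of 12 alternatives. The small nucleolar RNA genes SNORD83A and SNORD83B lie within RPL3 and did not pass.

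**Figure D4:**
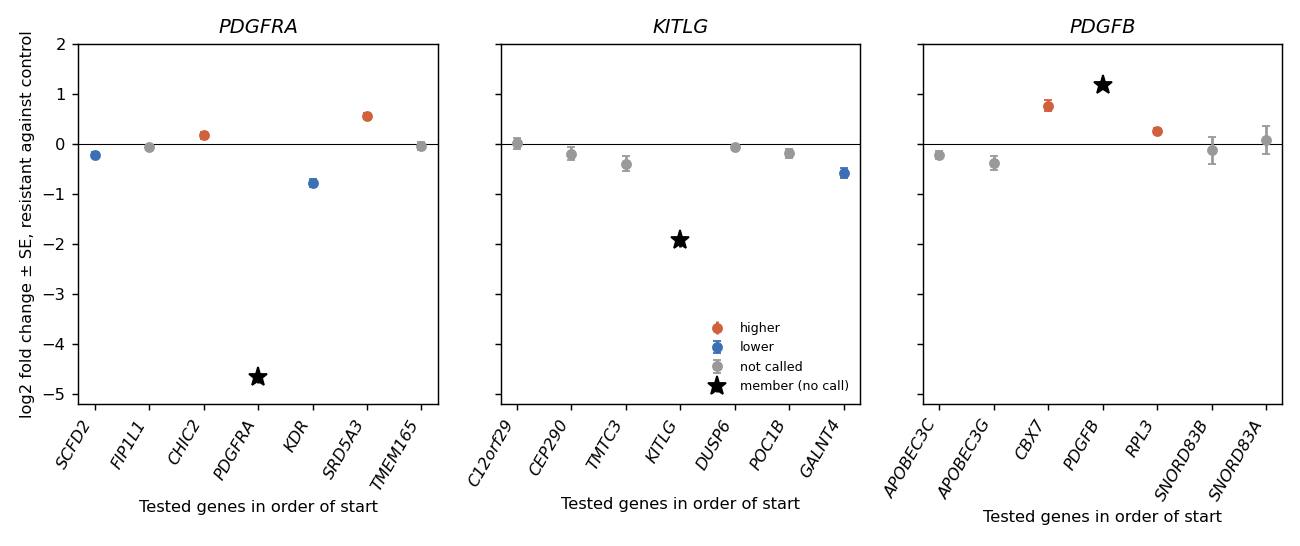
log2 fold change with SE (3 libraries per group) of PDGFRA, KITLG and PDGFB (stars) and of the 3 nearest tested genes on each side, in order of start. The neighbours lie between -0.77 and 0.77 and the stars, picked for their differences, at -4.66, -1.91 and 1.19.

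The genes with a pattern most like a member's were taken by the smallest Euclidean distance between gene-centred log2 CPM (counts scaled to library size) over the 6 libraries, among all tested genes. Nearest to PDGFRA was PRRX2, a homeobox gene known from embryonic mesenchyme, at a distance of 0.525, which went from 2.21 ± 0.194 to 0.0994 ± 0.0362 FPKM (SD, n = 3 each). FAM131B (3.17 and 0.284 FPKM in control and resistant cells) followed at 1.49 and TFF1, a trefoil peptide gene, at 1.74. Like PDGFRA, PRRX2 and FAM131B reached the level for testing only through their control libraries. The distance includes the difference between the groups, by which the members were picked. Nearest to KITLG were EDIL3, a secreted integrin ligand, at 0.147, and the prostaglandin genes PTGFR, a receptor, at 0.181 and PTGS2, the inducible cyclooxygenase, at 0.257. Their transcripts had 38.1%, 37% and 36.9% GC, close to that of KITLG. Nearest to PDGFB were the tubulin gene TUBA1A at 0.0359, the antisense gene ITGB2-AS1 at 0.100 and TEP1, a telomerase-associated protein gene, at 0.103. No source used here says whether counting used strand, so fragments of ITGB2-AS1 and ITGB2 cannot be told apart. None of these 9 genes lies on the chromosome of the member it is nearest to.

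Among receptors related to PDGFRA by structure, the VEGF receptor genes KDR and FLT1 fell. Of the other receptors of this class and of the VEGF receptors, CSF1R, FLT3 and FLT4 stayed under 1 FPKM in all 6 libraries. FLT1, a VEGF receptor, was singled out after its values were seen. It was at 1.77, 1.5 and 1.45 FPKM in control libraries and 0.507, 0.481 and 0.489 in resistant libraries (log2 fold change -1.69 ± 0.10, SE). FLT1 reached the level for testing only through its control libraries, so no p-value is given for it. The groups did not overlap. Together with ligands of these receptors, 8 genes were tested, of which 3 rose, 3 fell and 2 did not pass, with a median of 0.03. Of the 8, 75% passed against 50.2% of all genes tested. FLT1 is in these counts. So is FLT3LG (0.823 and 1.76 FPKM in control and resistant cells), which reached the level only through its resistant libraries. VEGFC, a lymphatic growth factor, rose from 20.2 ± 0.386 to 26.5 ± 0.625 FPKM (SD, n = 3 each; 0.37 ± 0.05), and VEGFA fell from 17.2 ± 0.882 to 15.0 ± 0.184 FPKM (-0.21 ± 0.05).

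Proteases that activate the PDGF-C and PDGF-D chains differed in opposite directions. PLAU, the urokinase that cleaves PDGF-D, rose from 366, 411 and 411 FPKM in control libraries to 1290, 1240 and 1250 in resistant libraries (log2 fold change 1.65 ± 0.05; edgeR adjusted p = 1.59e-07). PLAT, the tissue plasminogen activator that cleaves PDGF-C, fell from 127, 141 and 155 FPKM to 63.7, 69.3 and 67.8 (-1.09 ± 0.07; adjusted p = 6.87e-06). In both genes the groups were well separated. ST14, or matriptase, which also cleaves PDGF-D, fell from 90.2 ± 9.01 to 67.1 ± 0.97 FPKM (SD, n = 3 each; -0.45 ± 0.07), and NRP1, a co-receptor of VEGF and PDGF, fell from 327 ± 0.177 to 259 ± 8.21 FPKM (-0.35 ± 0.04). Of 9 tested genes for ligand processing and binding, 3 rose, 5 fell and 1, the sheddase gene ADAM17, did not pass, with a median of -0.25. That is 88.9% passing against 50.2% of all genes. The median over all tested genes was -0.009.

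Among adaptors and effectors of the receptors, 4 genes rose and 9 fell. The other 16 of the 29 tested did not pass, with a median log2 fold change of -0.07, and 44.8% passed against 50.2% of all genes tested. GAB2, a docking protein for PI3K and SHP2, rose from 5.57 ± 0.145 to 9.45 ± 0.284 FPKM (SD, n = 3 each; 0.74 ± 0.05, edgeR adjusted p = 1.22e-05). Among the SRC-family kinases, which bind both PDGF receptors and KIT, FYN rose by 0.35 ± 0.07, while YES1 (-0.46 ± 0.10) and SRC (-0.38 ± 0.06) fell and LYN (-0.03 ± 0.06) did not pass. Without control replicate 1, where 64.8% of all genes tested passed, 7 adaptors rose and 12 fell.

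Negative regulators of these receptors went both ways: 3 of the 16 tested rose and 5 fell, 8 missed the threshold, and the median was -0.04. The 50% that passed is close to the 50.2% of all genes tested. UBASH3B, a phosphatase that acts on tyrosine kinases, rose from 24.9 ± 1.14 to 42.1 ± 0.592 FPKM (SD, n = 3 each; 0.74 ± 0.05, edgeR adjusted p = 8.06e-06). CBLC, a ubiquitin ligase of the CBL family, fell by 0.48 and SOCS6, which binds KIT, by 0.30 on the log2 scale. PTPN6, which encodes the phosphatase SHP1, had 0.31 ± 0.09, a call that did not hold when control replicate 2 (0.29), resistant replicate 1 (0.26) or resistant replicate 2 (0.31) was left out. Without control replicate 1, with 64.8% of all genes passing, 6 regulators rose and 7 fell.

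Genes known to be induced by growth factors such as PDGF also went both ways. Among the 17 that were tested, 5 rose and 5 fell, and 7 missed the threshold; the median was 0.12. Of this list 58.8% passed, against 50.2% of all genes tested. HAS2, the hyaluronan synthase that PDGF induces in fibroblasts, fell from 34.8, 32.2 and 31.1 FPKM in control libraries to 11.9, 11.3 and 12.2 in resistant libraries (log2 fold change -1.49 ± 0.06; edgeR adjusted p = 1.02e-06). The groups did not overlap. The feedback inhibitor gene SPRY4 fell from 10.8 ± 0.501 to 5.51 ± 0.459 FPKM (SD, n = 3 each), while JUN rose by 0.56 ± 0.06 and CCND1, which encodes cyclin D1, by 0.45 ± 0.04. FOS, EGR1, EGR2, EGR3 and CCL2 were under the level needed for testing.

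Of 9 transcription factors of KIT-dependent lineages, 5 reached the level for testing. Of these 1 rose, 3 fell and 1, MITF, did not pass, so that 80% passed against 50.2% of all genes. GATA1 was at 0 in every library, TAL1 at 0.00169 and 0.00170 FPKM in control and resistant cells, LMO2 at 0.240 and 0.772, and LYL1 at 0.645 and 0.749. RUNX1, a blood lineage factor, rose from 5.47 ± 0.593 to 11.2 ± 0.434 FPKM (SD, n = 3 each; 1.01 ± 0.08, edgeR adjusted p = 2.56e-05). ETV1, a factor of the gut pacemaker cells that depend on KIT, fell by 0.72 on the log2 scale, and GATA2, a factor of blood stem cells and mast cells, by 0.41. Among mast cell and leukocyte markers, CD68, a lysosomal protein gene of macrophages, rose from 15.9 ± 0.42 to 35.8 ± 1.02 FPKM (SD, n = 3 each; 1.15 ± 0.05, edgeR adjusted p = 1.27e-06) and was the 1 marker of 9 at the level for testing. The mast cell gene TPSAB1 was at 0 in every library, and CPA3 (0.0307 and 0.0302 FPKM), MS4A2 (0.00945 and 0.00984) and PTPRC (0.0308 and 0.0382) were near 0 in control and resistant cells. None of 5 melanocyte markers reached the level for testing: TYR was at 0 in all 6 libraries, PMEL at 0.489 and 0.543 FPKM and MLANA at 0.152 and 0.140.

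**Figure D5:**
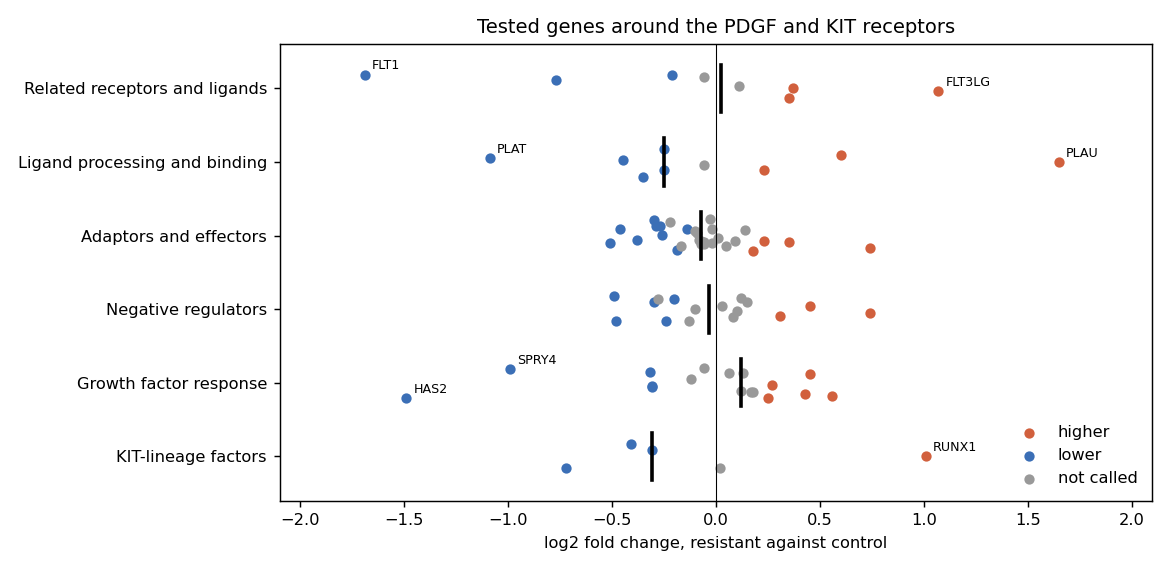
log2 fold change, resistant against control, of each tested gene in 6 lists around the PDGF and KIT receptors, coloured by the call of edgeR's quasi-likelihood test (adjusted p under 0.05); black bars are list medians, which lie between -0.31 and 0.12. PLAU at 1.65 and FLT1 at -1.69 are the outermost points.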

How the data were processed

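RNA was sequenced in 3 control and 3 resistant libraries of PC-3 cells. The submitters' processing notes name TopHat2 2.0.6 and hg19; for the counting tool, gene models and strand, the entry is: not given in the sources used here. Per the file headers, each deposited table holds a whole-number fragment count per gene, not normalized, a score (FPM) that scales the count by 1 library total, and the authors' FPKM, which divides that score by mRNA size. Gene counts summed to 5.56% to 5.84% above that total. The score was used here only to recover it.

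The members and gene lists were chosen with earlier results of these data known. Rows with a repeated symbol (849 rows, 396 symbols) were left out, starts were converted to count from 1, and the 13070 genes whose FPKM averaged 1 or more entered edgeR 4.0.16 (TMM scaling, quasi-likelihood test, group as the sole term; Benjamini-Hochberg adjusted p under 0.05). The SE of a log2 fold change is its size divided by the square root of the F statistic. Levels are FPKM means with the SD of 3 libraries. The 6 libraries differed from each other by more than sampling noise, with a chi-square per degree of freedom of 3.88 to 33.1 between libraries of a group. Named genes were the members, up to 4 passing genes per list with the largest change and at least 5 FPKM in the higher group, the nearest neighbours (values for those of PDGFRA, KITLG and PDGFB) and the nearest patterns (prior count 0.5). Alternatives were DESeq2 1.42.0, library totals, no filter, a replicate block, a GC correction (loess, span 0.3, longest GENCODE 29 transcript; 97.1% of tested genes matched), the last 2 together, FPKM from TMM-scaled totals, CPM, and each library left out; the GC correction without control replicate 1 was added after the data were seen. Promoter windows are from RefSeq tables in GRCh38.p14, with no coordinates carried between builds. The pipeline was tested on simulated data.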

Additional observations from a re-analysis of the deposited data

How the results depend on the processing

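No member's log2 fold change changed sign in 78 values over 13 alternatives (adding the GC correction without control replicate 1), and 4 moved by more than the spread between libraries. With the GC correction, alone and with the replicate block, PDGFA was at -0.41 and PDGFC at 0.30. Leaving out each library gave -4.75 to -4.54 for PDGFRA, -2.01 to -1.72 for KITLG, 1.12 to 1.24 for PDGFB, -0.36 to -0.33 for PDGFA, 0.20 to 0.28 for PDGFC and 0.13 to 0.36 for PDGFD. Over all genes, 3200 rose and 3360 fell, with 2544 to 4165 and 2368 to 4298 when a library was left out.

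Negative regulators that rose numbered 6 and those that fell 8 with the GC correction, alone and with the replicate block, and 2 to 6 rose when a library was left out. Adaptors that rose numbered 7 with the GC correction and replicate block, and 4 to 7 when a library was left out. Over all 13070 genes tested, calls also grew in these settings. With the GC correction 3833 rose and 4362 fell, and with the replicate block added 3770 and 4338. KIT-lineage factors that rose numbered 2 with no filter on low values, where more genes were tested. Over all genes of that fit, 3827 rose and 4201 fell. MSANTD4, a neighbour of PDGFD at -0.02, was at 0.11 (edgeR adjusted p = 0.034) without control replicate 1 and spanned -0.08 to 0.11 over the libraries left out; the cause of these changes was not tested. Of 65 named genes, 5 lost a call in some alternative, 11 gained a call, and 49 did neither. FLT1, JAK2 and cell type markers such as CDH1 and CD68 were not among the 65. Levels from TMM-scaled totals and CPM moved no ratio between the lines beyond the spread. These settings had little room to move a ratio. Transcript length cancels in it, gene sums were 5.56% to 5.84% above the authors' total, and TMM factors were 0.985 to 1.01.

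Replicate numbers did not pair the libraries: the deviations of same-numbered libraries correlated at -0.0255, 0.0368 and -0.0882 across genes, and none correlated best with its own number. With the replicate block 6281 genes passed against 6560, of which 6087 were shared. Among the members, depth leaves no comparison for PDGFRB and KIT.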

Other observations

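Signal transducers that KIT and PDGF receptors activate were partly undetected in this line. STAT3, STAT5A and STAT5B had 0 fragments in all 6 libraries, while the kinase gene JAK2 was at 4.10 ± 0.534 FPKM in control and 2.92 ± 0.374 in the resistant line (SD over 3 libraries). JAK2 fell by 0.51 on the log2 scale, with an SE of 0.12 and an edgeR adjusted p = 0.00849. It lies outside the rule for named genes, and its call was not followed over the alternatives.

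Within the control group, the members' levels in control replicate 1 were set against the mean of control replicates 2 and 3, beside transcript GC content. KITLG (37.3% GC) stood at 1.41 times that mean, PDGFC (40.5%) at 1.10 times and PDGFD (41.2%) at 1.34 times. PDGFRA (42.9%) and PDGFA (52.7%) were each at 1.01 times, and PDGFB (60.6%) was at 0.855 times. The members between KITLG and PDGFB in GC content did not follow its order. This comparison was made after the values were seen, and the part of base composition in it was not tested.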
